A study of Mus musculus with 12 samples.

Results

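The genes described here are 10 members of the AP-1 and immediate early response: the FOS family genes Fos, Fosb and Fosl2, the JUN family genes Jun, Junb and Jund, the ATF family gene Atf3, the zinc finger gene Egr1, the nuclear protein gene Ier2 and the phosphatase gene Dusp1. They were taken by gene symbol from a table of 46986 features. Of the 10, 8 reached 1 RPKM (reads per kilobase of gene, scaled to the number of reads in the library) in at least 3 libraries and were tested among 8553 genes in all, while Fosb and Atf3 did not. RNA was sequenced from hematopoietic stem cells (HSCs), the bone marrow cells that renew the blood, of C57BL/6 mice at 12 weeks of age. There were 4 groups of 3 libraries. The ABX 5-FU group was given broad-spectrum antibiotics and then 5-fluorouracil (5-FU), and was taken on day 12. The Ctrl 5-FU group had 5-FU without antibiotics and was taken on the same day. The ABX group had antibiotics alone, and the Ctrl group had neither agent, both at steady state. The antibiotics were vancomycin, metronidazole, neomycin and ampicillin, given in the water the mice drank over 4 to 6 weeks. 5-FU, an antimetabolite that kills dividing marrow cells, was injected into a vein at 200 mg/kg. Each library was made from 2000 sorted cells. The labels name no animal for any library, so the p-values given here reflect spread between libraries that may be technical.

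AP-1 is a family of transcription factors that bind DNA as pairs. JUN proteins pair with each other or with FOS proteins, and the pair binds a short palindromic DNA site. Many of the genes are immediate early genes: kinase signals from growth factors, cytokines or stress switch them on within minutes without new protein synthesis, and their RNAs are short-lived. In HSCs, JUNB is known from mouse knockouts as a brake on proliferation and on myeloid output. Immediate early genes are also known to respond to cell isolation and sorting, and every library here came from sorted cells.

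On day 12 after 5-FU, Junb and Fosl2 were higher than at steady state both with and without antibiotics, and Fos was higher with antibiotics. Junb stood at 105 ± 6.29 RPKM in ABX 5-FU and 45.5 ± 11.2 RPKM in ABX libraries, and at 110 ± 10.8 RPKM in Ctrl 5-FU and 46.9 ± 8.33 RPKM in Ctrl libraries (SD, n = 3 each). None of the 8 tested genes was called lower after 5-FU, and none was called in either direction for antibiotics, where 0.0702% of all tested genes were called at steady state and 0.117% after 5-FU (limma on log2(RPKM + 1), Benjamini-Hochberg adjusted p of at most 0.05). Ier2, the gene with the highest mean of the 10 over the 12 libraries at 104 RPKM, differed by no more than 0.09 in log2(RPKM + 1) between groups with and without 5-FU.

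With antibiotics, 3 of the 8 tested genes were called higher and 0 lower, where 13.7% of the 8553 tested genes were called higher and 16.5% lower. Without antibiotics, 2 of 8 were called higher and 0 lower, where 9.74% of all tested genes were called higher and 11.8% lower. All 3 libraries with 5-FU were above all 3 without it for 3 of 8 genes with antibiotics (Fos, Fosl2 and Junb), where 23.1% of all genes were, and for 4 of 8 without antibiotics (Fosl2, Jun, Junb and Jund), where 18.6% were. Fosl2 could be in these counts only by being higher after 5-FU. Scaling each library to the same total put more of all called genes on the higher side, 74.1% against 45.4% with antibiotics and 81.1% against 45.1% without, and put the median change of all genes at 0.15 against -0.01 with antibiotics and at 0.18 against 0.0045 without. Under it Junb changed by 1.40 and 1.42, Fosl2 by 2.24 and 1.91 and Fos by 1.78 and 0.85 with and without antibiotics, and the same genes were called, Fos with antibiotics and not without.

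**Figure D1:**
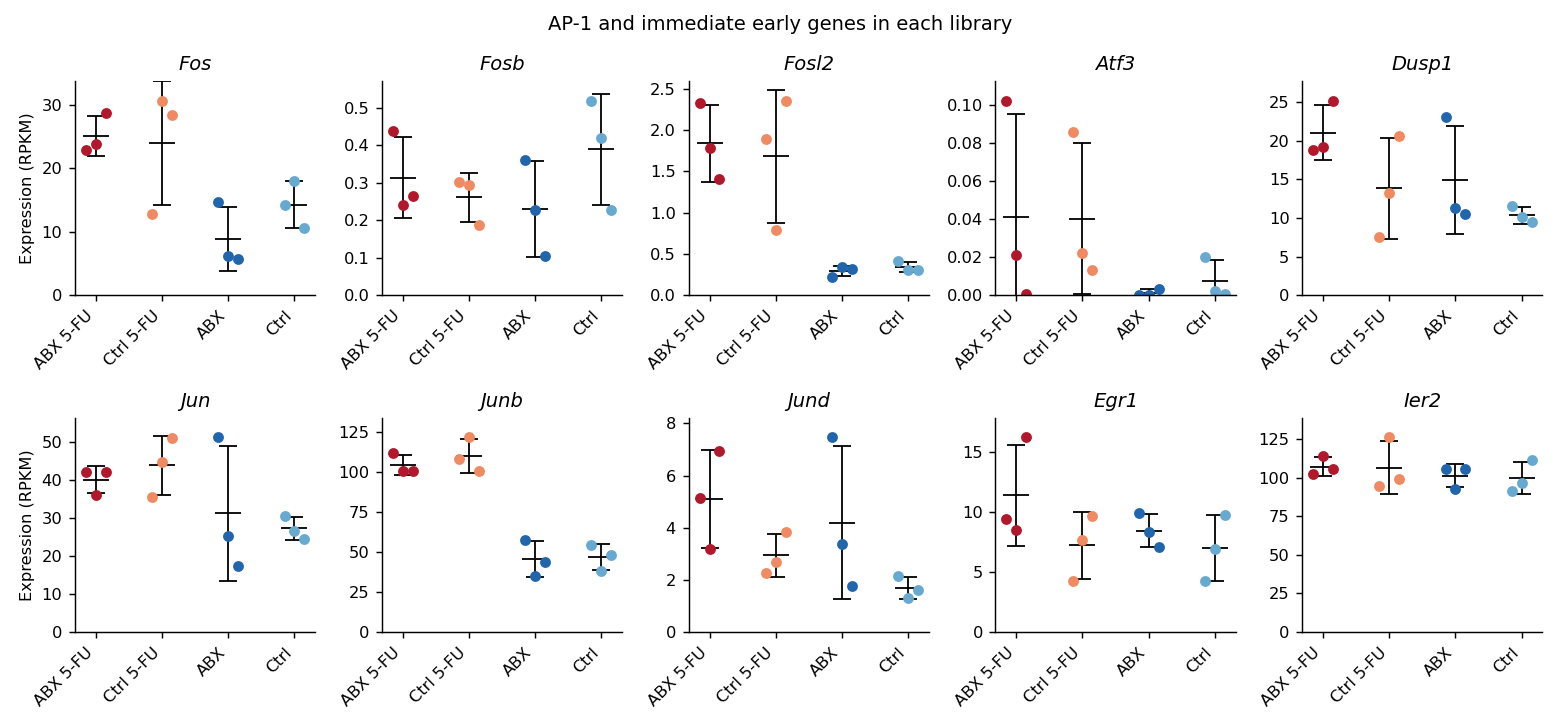
Expression in RPKM of the 10 genes in each of the 12 libraries, with ABX 5-FU, Ctrl 5-FU, ABX and Ctrl from left to right in each panel. Points are libraries and bars are the mean ± SD of 3. All 6 libraries with 5-FU lie above all 6 without it for Junb and Fosl2, whereas the 4 groups of Ier2 lie between 91.4 and 126 RPKM.

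Several facts of the libraries stand beside these results. Ctrl 5-FU replicate 1 stood apart, with correlations across genes of 0.972 and 0.971 with the rest of its group, against 0.989 between those. The steps between low values gave depths of about 31.2 to 38.0 M reads in ABX 5-FU, 27.4 to 53.3 in Ctrl 5-FU, 28.8 to 37.2 in ABX and 43.7 to 54.0 in Ctrl libraries. No i7 index was used both with and without 5-FU, so 5-FU and index cannot be told apart. Among 10 HSC markers, Hlf, Procr, Kit, Ly6a and Hoxb5 exceeded 2 RPKM in every library, while Mecom did not exceed 0.550 RPKM in any. The HSC markers summed to 196 to 220 RPKM in ABX 5-FU, 213 to 230 in Ctrl 5-FU, 147 to 184 in ABX and 168 to 186 in Ctrl libraries, and of 8 tested, 5 were called higher and 1 lower after 5-FU with antibiotics and 4 higher and 1 lower without. The 10 neutrophil and monocyte markers summed to 12.4 to 36.2 RPKM in ABX 5-FU, 34.4 to 287 in Ctrl 5-FU, 8.63 to 18.6 in ABX and 9.23 to 20.2 in Ctrl libraries. Of these markers, Ngp, S100a8 and S100a9 were called higher after 5-FU without antibiotics, and none was called with antibiotics. The 6 stromal and endothelial markers summed to 27.6 RPKM in the highest ABX 5-FU library and 13.5 RPKM in the highest Ctrl 5-FU library, both replicate 1, against medians of 0.635 and 0.549 RPKM in those groups. Without 5-FU they summed to 0.393 to 1.11 RPKM in ABX libraries and 0.421 to 5.41 RPKM in Ctrl libraries, with a Ctrl median of 0.499 RPKM. The 6 T and NK cell markers summed to 31.8 to 37.6 RPKM in ABX 5-FU, 38.8 to 54.9 in Ctrl 5-FU, 24.0 to 27.8 in ABX and 24.9 to 39.4 in Ctrl libraries, mostly Nkg7, with Klrb1c called higher after 5-FU in both comparisons and Cd3e, Cd3g and Cd8a listed at the floor in every library. The 5 B cell markers summed to 10.3 to 12.9 RPKM in ABX 5-FU, 8.62 to 12.1 in Ctrl 5-FU, 12.2 to 15.0 in ABX and 11.3 to 13.2 in Ctrl libraries, nearly all Cd79b, with Ms4a1 and Pax5 listed at the floor in every library. The 8 erythroid markers summed to 167 to 509 RPKM in ABX 5-FU, 144 to 230 in Ctrl 5-FU, 40.1 to 58.1 in ABX and 28.6 to 305 in Ctrl libraries. Hbb-bt was called higher after 5-FU in both comparisons, and Epor and Klf1 with antibiotics. The 5 platelet and megakaryocyte markers summed to 99.2 to 122 RPKM in ABX 5-FU, 87.7 to 375 in Ctrl 5-FU, 78.4 to 82.9 in ABX and 49.9 to 138 in Ctrl libraries, with Gp1ba called higher after 5-FU in both comparisons and Gp1bb without antibiotics. The 6 macrophage markers summed to 7.51 to 11.6 RPKM in ABX 5-FU, 4.07 to 10.1 in Ctrl 5-FU, 5.65 to 25.1 in ABX and 2.71 to 13.3 in Ctrl libraries. Gp1bb and Ctnnal1, an HSC marker called higher in both comparisons, were under 1 RPKM in every library without 5-FU. Klrb1c reached 1 RPKM there only in Ctrl replicate 2. Gp1bb, Ctnnal1 and Klrb1c could therefore enter the test only through the libraries with 5-FU, where they were higher. The part of all these cell markers in the results below was not tested.

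The JUN family was the more abundant AP-1 family in every group. Its 3 genes summed to 150 ± 9.47 RPKM in ABX 5-FU, 157 ± 11.7 in Ctrl 5-FU, 81.0 ± 30.5 in ABX and 75.9 ± 10.7 in Ctrl libraries (SD, n = 3). Junb made up 69.9% ± 2.44 of that sum in ABX 5-FU, 70.3% ± 4.96 in Ctrl 5-FU, 58.1% ± 10.3 in ABX and 61.7% ± 3.76 in Ctrl libraries. The Ctrl 5-FU libraries, at 64.7% to 74.2%, overlapped the Ctrl libraries, at 57.6% to 65.0%. The ABX 5-FU libraries, at 67.3% to 72.1%, likewise overlapped the ABX libraries, at 49.5% to 69.6%. The FOS family, with Fosl1 counted in, summed to 27.4 ± 2.61 RPKM in ABX 5-FU, 26.0 ± 9.43 in Ctrl 5-FU, 9.73 ± 5.26 in ABX and 15.2 ± 3.75 in Ctrl libraries. Fos itself held 91.5%, 90.6%, 90.2% and 93.8% of those sums in the ABX 5-FU, Ctrl 5-FU, ABX and Ctrl groups, so the other FOS genes were minor everywhere. In bulk samples, fewer cells with an RNA and less of it in each cell cannot be told apart.

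**Figure D2:**
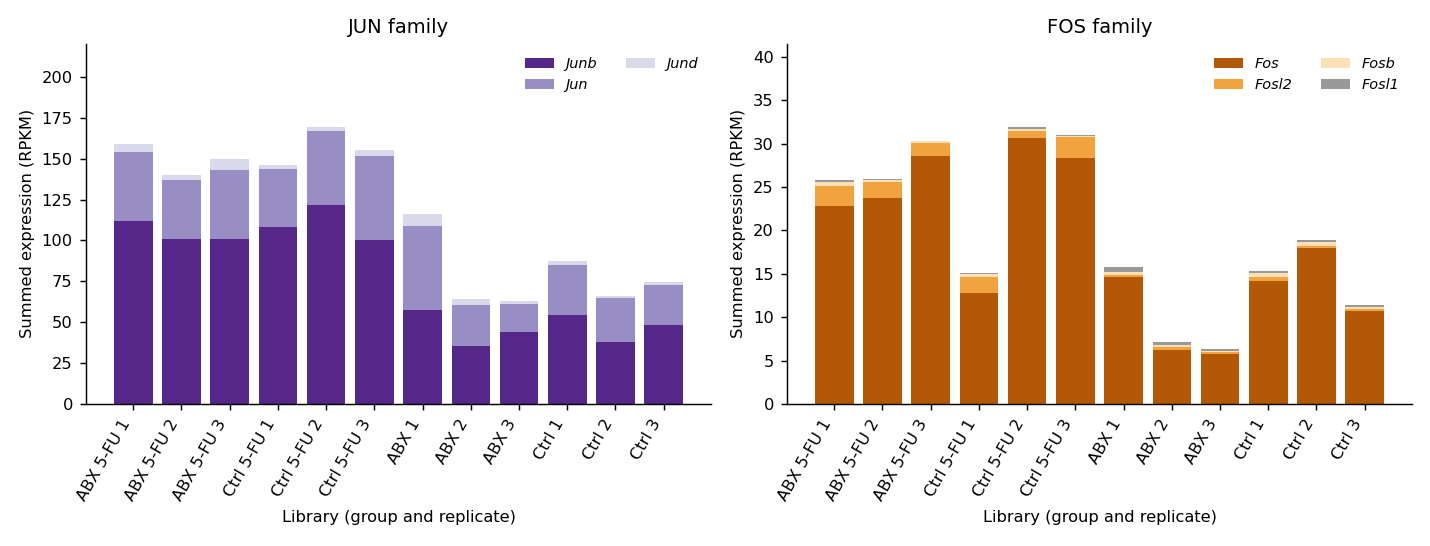
Summed expression in RPKM of the JUN family (left) and the FOS family (right) in each library, stacked by gene and ordered ABX 5-FU, Ctrl 5-FU, ABX, Ctrl. The JUN sums are 140 RPKM or more in the 6 libraries with 5-FU and 116 RPKM or less in the 6 without it, and Fos fills most of each FOS bar.

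Junb (chromosome 8, 84976909 to 84978748, minus strand, 1 exon; positions are mm10) encodes a JUN protein that often opposes the growth-promoting action of c-Jun. It measured 112, 101 and 101 RPKM in ABX 5-FU libraries, 108, 122 and 101 RPKM in Ctrl 5-FU libraries, 57.6, 35.3 and 43.7 RPKM in ABX libraries, and 54.5, 38.0 and 48.3 RPKM in Ctrl libraries (replicates 1, 2 and 3). Every library with 5-FU was above every library without it, and the antibiotic groups overlapped their controls. With antibiotics the change was 1.21 ± 0.17 (SE) in log2(RPKM + 1), the scale of every difference given (limma, Benjamini-Hochberg adjusted p = 0.000693). Without antibiotics it was 1.23 ± 0.17 (limma, adjusted p = 0.0012). Junb passed the test in both comparisons under each of the 20 other settings tried, including the fit without Ctrl 5-FU replicate 1, which gave 1.24 ± 0.19 without antibiotics (limma, adjusted p = 0.00224).

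Fosl2 (chromosome 5, 32135801 to 32157842, plus strand) encodes FRA-2, a FOS protein that lacks the strong activation domain of c-Fos. It measured 2.33, 1.78 and 1.41 RPKM in ABX 5-FU libraries, 1.89, 0.793 and 2.35 RPKM in Ctrl 5-FU libraries, 0.227, 0.344 and 0.320 RPKM in ABX libraries, and 0.417, 0.306 and 0.310 RPKM in Ctrl libraries. The 6 libraries with 5-FU again lay above the 6 without it. It reached 1 RPKM in 5 libraries, all with 5-FU, so it could enter the test only by being higher there. The ratio of mean RPKM was 6.19 for ABX 5-FU over ABX and 4.88 for Ctrl 5-FU over Ctrl. The fitted changes, which the added 1 RPKM makes smaller for so low a gene, were 1.12 ± 0.19 with antibiotics (limma, adjusted p = 0.00192) and 0.95 ± 0.19 without (limma, adjusted p = 0.00728). Without Ctrl 5-FU replicate 1 the comparison without antibiotics gave 0.87 ± 0.22 (limma, adjusted p = 0.0174).

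Fos (chromosome 12, 85473890 to 85477273, plus strand) encodes c-Fos, the prototype of the immediate early transcription factors. It measured 22.8, 23.8 and 28.6 RPKM in ABX 5-FU libraries, 12.8, 30.6 and 28.4 RPKM in Ctrl 5-FU libraries, 14.6, 6.21 and 5.70 RPKM in ABX libraries, and 14.2, 18.0 and 10.7 RPKM in Ctrl libraries. With antibiotics the groups did not overlap and Fos rose by 1.51 ± 0.36 (limma, adjusted p = 0.00915). Without antibiotics Ctrl 5-FU replicate 1 fell inside the Ctrl range, and the difference of 0.64 ± 0.36 did not pass the test (limma, adjusted p = 0.213, 95% interval -0.14 to 1.42). Leaving out that library gave 1.03 ± 0.32 (limma, adjusted p = 0.0395). The difference between these 2 changes, the interaction, was 0.87 ± 0.50 and did not pass (limma, adjusted p = 0.667), so the rise was not shown to differ with antibiotics.

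The promoters of these 3 genes, 250 bases before to 50 after the RefSeq start site (GRCm38.p6), are printed 5′ to 3′ because they are the genes whose RNA was higher after 5-FU. Capitals mark matches to motifs of factors that act on immediate early genes. Junb is read on the minus strand from chr8:84978699-84978998, Fosl2 on the plus strand from chr5:32136222-32136521, downstream of the gene start in the table, and Fos on the plus strand from chr12:85473640-85473939.
Junb: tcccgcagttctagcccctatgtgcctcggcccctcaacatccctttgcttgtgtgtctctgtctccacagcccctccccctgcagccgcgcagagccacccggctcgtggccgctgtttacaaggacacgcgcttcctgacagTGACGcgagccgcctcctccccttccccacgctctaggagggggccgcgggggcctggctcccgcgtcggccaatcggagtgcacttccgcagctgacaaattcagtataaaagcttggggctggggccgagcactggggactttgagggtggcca
Fosl2: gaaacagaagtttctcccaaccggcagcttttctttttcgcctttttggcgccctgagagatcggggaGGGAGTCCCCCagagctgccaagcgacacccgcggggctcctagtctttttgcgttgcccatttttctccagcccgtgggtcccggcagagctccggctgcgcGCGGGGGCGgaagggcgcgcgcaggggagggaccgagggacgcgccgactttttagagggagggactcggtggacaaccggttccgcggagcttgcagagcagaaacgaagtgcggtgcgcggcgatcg
Fos: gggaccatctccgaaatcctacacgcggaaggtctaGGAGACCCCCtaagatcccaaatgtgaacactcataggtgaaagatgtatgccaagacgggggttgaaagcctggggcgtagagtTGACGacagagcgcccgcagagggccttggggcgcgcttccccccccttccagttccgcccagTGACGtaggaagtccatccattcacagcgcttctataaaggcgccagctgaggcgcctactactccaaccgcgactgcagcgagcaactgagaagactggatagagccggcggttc

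Motifs were searched on both strands: the cyclic AMP response element TGACGTCA (CRE), its core TGACG, the AP-1 site TGANTCA, the STAT site TTCNNNGAA, the EGR site GCGNGGGCG, and by name the CArG box of serum response factor and the NF-kB site. In Junb the capitals are a CRE core at -106 from the start site. In Fos they are CRE cores at -129 and -66 and an NF-kB match at -214. In Fosl2 they are an EGR match at -79 and NF-kB matches at -182 and -181 that overlap each other. Of the 32851 promoters of the same length, 20.8% hold the CRE core, which is therefore common. The other motifs are less frequent: 5.55% hold an EGR match and 4.51% an NF-kB match, with 1.79% for the full CRE, 7.81% for the AP-1 site, 8.30% for the STAT site and 1.63% for the CArG box. Of the 10 genes, 8 had a promoter in the table. Fosb held a CRE core at -60, an EGR match at -50 and an NF-kB match at -188. Dusp1 held the full CRE at -143, which contains the cores at -143 and -140, and a further core at -191. Atf3 held a CRE core at -7, and Jun and Jund held none of these letters in this window. The Atf3 window, chr1:191183284-191183583, lies downstream of the gene start in the table at 191218039. The Jund window, chr8:70697489-70697788, lies upstream of the GENCODE start at 70698949 and does not cover the bases around that start.

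The other JUN genes gave no call. Jun (chromosome 4, 95049034 to 95052222, minus strand, 1 exon), which encodes c-Jun, the founding JUN protein, measured 42.1, 35.9 and 42.1 RPKM in ABX 5-FU libraries, 35.5, 44.7 and 51.0 RPKM in Ctrl 5-FU libraries, 51.2, 25.2 and 17.4 RPKM in ABX libraries, and 30.5, 26.7 and 24.5 RPKM in Ctrl libraries. The Ctrl 5-FU libraries lay above all Ctrl libraries, while the ABX libraries spread on both sides of the ABX 5-FU libraries. The differences were 0.48 ± 0.29 with antibiotics (limma, adjusted p = 0.228) and 0.66 ± 0.29 without (limma, adjusted p = 0.127, unadjusted p = 0.045). Without ABX replicate 1, the highest Jun library of the 12, they were 0.90 ± 0.18 (limma, adjusted p = 0.00718) and 0.66 ± 0.16 (limma, adjusted p = 0.0178). The comparison without antibiotics holds no ABX library, so its difference stayed at 0.66. Only the spread shared over the groups became smaller there, with an SE of 0.16 against 0.29. Without ABX replicate 3, the lowest Jun library of its group, the difference with antibiotics was 0.15 ± 0.25 (limma, adjusted p = 0.685). The fit to the Ctrl 5-FU and Ctrl libraries alone also called Jun (limma, adjusted p = 0.0374).

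Jund (chromosome 8, 70697739 to 70700616, plus strand, 1 exon), which encodes the JUN protein usually made at a steady level, measured 5.15, 3.20 and 6.94 RPKM in ABX 5-FU libraries, 2.28, 2.69 and 3.85 RPKM in Ctrl 5-FU libraries, 7.47, 3.37 and 1.77 RPKM in ABX libraries, and 2.13, 1.32 and 1.62 RPKM in Ctrl libraries. Its groups with antibiotics were wider than those without. The changes after 5-FU were 0.33 ± 0.35 with antibiotics (limma, adjusted p = 0.496) and 0.54 ± 0.35 without (limma, adjusted p = 0.286). Jund overlaps the antisense gene Gm11175, which was at 0.726 and 0.851 RPKM in ABX replicates 1 and 2 and at 1.47 RPKM in ABX 5-FU replicate 3, against at most 0.112 RPKM in the other 9 libraries. Without a strand setting the reads of this pair cannot be told apart, so the Jund values are uncertain.

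Fosb (chromosome 7, 19302721 to 19310045, minus strand), a FOS gene best known from neurons, lay between 0.104 and 0.520 RPKM in the 12 libraries. Its means were 0.314 ± 0.108 RPKM in ABX 5-FU, 0.261 ± 0.0648 in Ctrl 5-FU, 0.231 ± 0.128 in ABX and 0.390 ± 0.148 in Ctrl libraries (SD, n = 3), and all groups overlapped. Atf3 (chromosome 1, 191170296 to 191218039, minus strand), a stress-induced partner of JUN proteins, did not exceed 0.102 RPKM. It was listed at the floor of 0.0001 RPKM in ABX replicates 1 and 2, and its highest library, ABX 5-FU replicate 1, corresponds to an estimated 6.93 reads. At that depth a difference in Atf3 was not detectable.

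Egr1 (chromosome 18, 34859823 to 34864984, plus strand) encodes a zinc finger factor known in mice to hold HSCs in quiescence and in their niche. It measured 9.43, 8.47 and 16.2 RPKM in ABX 5-FU libraries, 4.26, 7.66 and 9.70 RPKM in Ctrl 5-FU libraries, 9.89, 8.35 and 7.11 RPKM in ABX libraries, and 4.29, 6.92 and 9.76 RPKM in Ctrl libraries. All pairs of groups overlapped. The change after 5-FU was 0.35 ± 0.31 with antibiotics (limma, adjusted p = 0.426) and 0.04 ± 0.31 without (limma, adjusted p = 0.944, 95% interval -0.65 to 0.72). Without ABX 5-FU replicate 3, the highest Egr1 library, the change with antibiotics was 0.084.

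Ier2 (chromosome 8, 84661331 to 84662852, minus strand, 1 exon) encodes a small nuclear protein switched on by growth factors. It measured 102, 114 and 105 RPKM in ABX 5-FU libraries, 94.3, 126 and 98.9 RPKM in Ctrl 5-FU libraries, 105, 92.6 and 106 RPKM in ABX libraries, and 91.4, 96.5 and 111 RPKM in Ctrl libraries. Its highest library was 1.38 times its lowest, against 3.45 times for Junb. The 95% interval of the change after 5-FU ran from -0.17 to 0.33 with antibiotics and from -0.16 to 0.34 without. The intervals of Junb began at 0.84 and 0.86. Junb and Ier2 are both short, GC-rich genes, at the 98.9th and 97.6th percentile of GC content among the tested genes. The 822 GC-richest tested genes had a median deviation from their mean over the 12 libraries of -0.063 to 0.047 on the log2 scale, depending on the library. The part of GC content and gene length in the values of Junb and Ier2 was not tested.

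Dusp1 (chromosome 17, 26505590 to 26508519, minus strand) encodes a phosphatase that switches MAP kinases off and is itself an immediate early gene. It measured 18.8, 19.2 and 25.2 RPKM in ABX 5-FU libraries, 7.61, 13.3 and 20.6 RPKM in Ctrl 5-FU libraries, 23.0, 11.3 and 10.5 RPKM in ABX libraries, and 11.5, 10.1 and 9.45 RPKM in Ctrl libraries. ABX replicate 1 reached into the ABX 5-FU range, and Ctrl 5-FU replicate 1 lay below the Ctrl libraries while replicates 2 and 3 lay above them. The change was 0.54 ± 0.32 with antibiotics (limma, adjusted p = 0.223) and 0.29 ± 0.32 without (limma, adjusted p = 0.548).

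**Figure D3:**
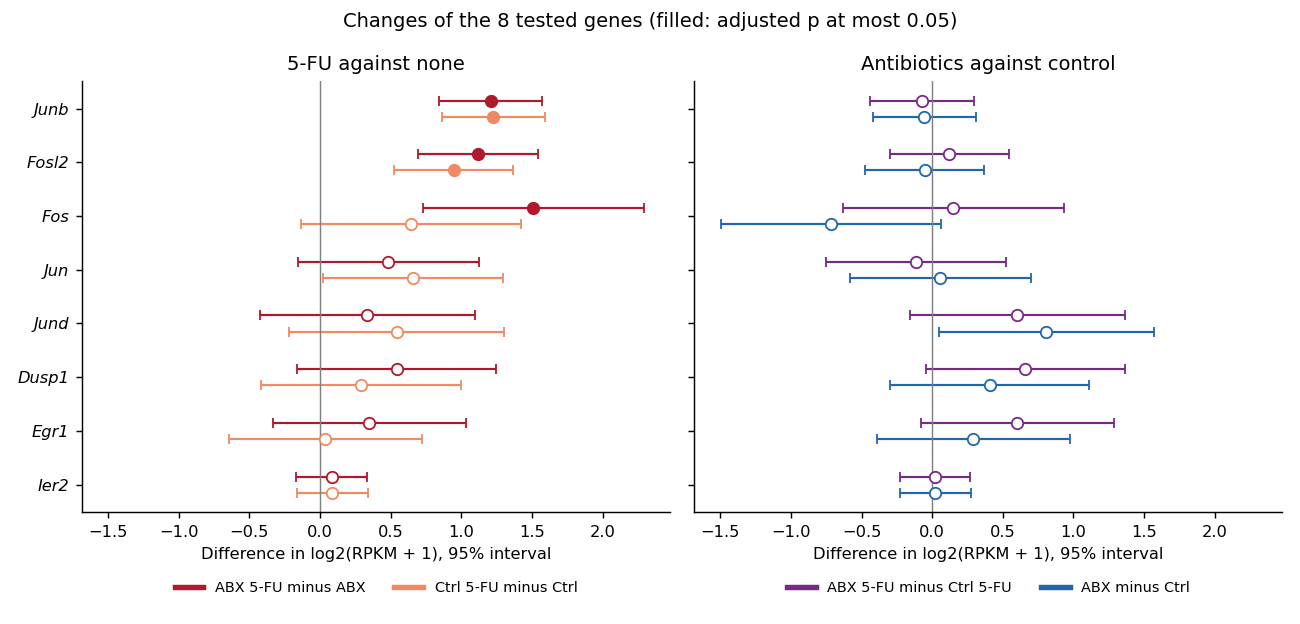
Differences in log2(RPKM + 1) of the 8 tested genes with 95% intervals, 5-FU against none (left) and antibiotics against control (right). Filled points passed an adjusted p of 0.05. Junb and Fosl2 are filled in both 5-FU comparisons, Fos with antibiotics at 1.51, and no point is filled on the right.

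Antibiotics gave no call among the 8 genes at steady state or after 5-FU. At steady state 6 of all tested genes were called in either direction, and 1519 had an unadjusted p under 0.05. After 5-FU it was 10 genes, with 1275 at an unadjusted p under 0.05. No gene of the 8 had ABX libraries clear of Ctrl libraries, or ABX 5-FU clear of Ctrl 5-FU libraries, where 22.1% and 21.2% of all genes did in either direction. At steady state the largest differences were 0.81 ± 0.35 for Jund (limma, adjusted p = 0.26, unadjusted p = 0.0395) and -0.72 ± 0.36 for Fos (limma, adjusted p = 0.315). After 5-FU they were 0.66 ± 0.32 for Dusp1 (limma, adjusted p = 0.371), 0.60 ± 0.35 for Jund (limma, adjusted p = 0.453) and 0.60 ± 0.31 for Egr1 (limma, adjusted p = 0.396). Without Ctrl 5-FU replicate 1 the differences after 5-FU were 0.32 ± 0.29 for Dusp1, 0.48 ± 0.39 for Jund and 0.31 ± 0.30 for Egr1, and again none of the 8 was called. With the shared i7 index as a block, 20 genes at steady state and 22 after 5-FU were called over all genes, with none of the 8 among them. For Junb the intervals were -0.42 to 0.31 at steady state and -0.44 to 0.29 after 5-FU. In the interaction 0.0117% of all tested genes, 1 gene, was called, and none of the 8. Its intervals were wide, -0.53 to 0.50 for Junb and -0.24 to 1.97 for Fos.

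In log2(RPKM + 1), libraries of the same group differed most for Fos, Jun, Jund, Egr1 and Dusp1, whose SEs were 0.29 to 0.36. The SEs were 0.11 to 0.19 for Ier2, Junb and Fosl2. The added 1 RPKM makes the SE smaller for a gene as low as Fosl2. With 0.1 RPKM added instead, the SE of Fosl2 was 0.33. ABX replicate 1 was the highest of its group for 6 of the 8 genes (Fos, Jun, Junb, Jund, Egr1 and Dusp1), with a median deviation of 0.52 from the group mean. Ctrl 5-FU replicate 1 was the lowest of its group for 6 of the 8 (Fos, Jun, Jund, Egr1, Ier2 and Dusp1), with a median deviation of -0.26. Ctrl 5-FU replicate 3 was the highest of that group for 5 of the 8 (Fosl2, Jun, Jund, Egr1 and Dusp1), with a median deviation of 0.32. ABX replicate 3 was the lowest for 5 of the 8. In ABX replicate 1 the deviations were 0.86 for Jund, 0.83 for Jun, 0.78 for Fos and 0.68 for Dusp1, against 0.36 for Junb and -0.08 for Fosl2. ABX replicate 1 had an estimated 30.6 M reads, between the other ABX libraries at 28.8 and 37.2 M. Leaving out Ctrl 5-FU replicate 1 gave changes without antibiotics of 0.79 for Jun, 0.66 for Jund, 0.33 for Egr1, 0.17 for Ier2 and 0.63 for Dusp1, none of them called. Without ABX replicate 1, Fos with antibiotics changed by 1.90 ± 0.31 (limma, adjusted p = 0.00382), the steady-state difference of Fos was -1.11 ± 0.31 (limma, adjusted p = 0.291) and that of Jund was 0.38 ± 0.28 (limma, adjusted p = 0.623). Over all 12 libraries left out in turn, the change with antibiotics ran from 1.29 to 1.90 for Fos, 0.15 to 0.90 for Jun, -0.044 to 0.76 for Jund, 0.084 to 0.51 for Egr1 and 0.35 to 0.88 for Dusp1. Without antibiotics it ran from 0.43 to 1.03 for Fos, 0.54 to 0.79 for Jun, 0.38 to 0.66 for Jund, -0.23 to 0.33 for Egr1 and -0.031 to 0.63 for Dusp1. The steady-state difference for antibiotics ran from -1.11 to -0.49 for Fos and from 0.38 to 1.19 for Jund.

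**Figure D4:**
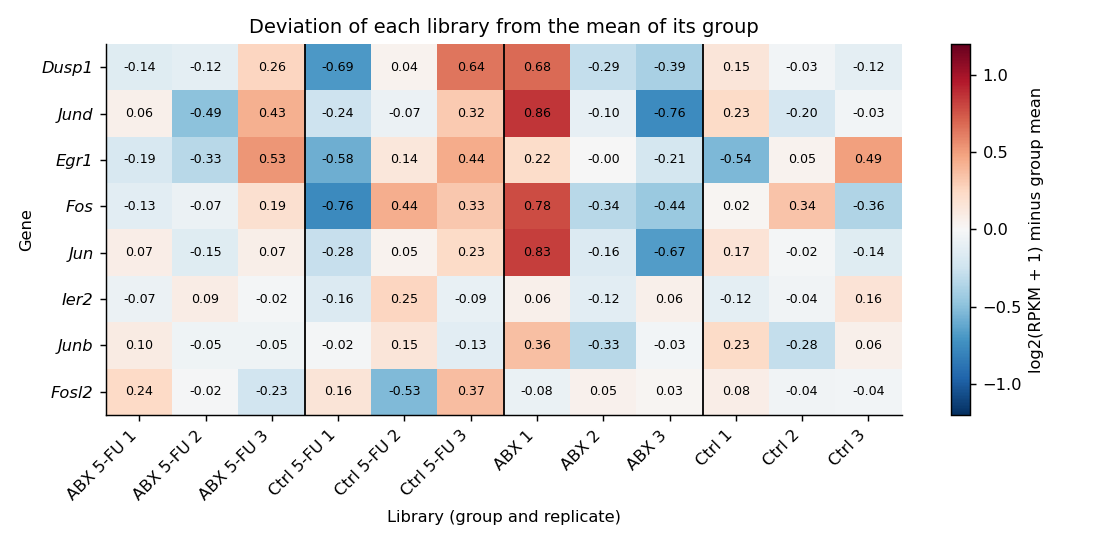
Deviation in log2(RPKM + 1) of each library from the mean of its group for the 8 tested genes, red above and blue below, with groups ordered ABX 5-FU, Ctrl 5-FU, ABX, Ctrl. ABX replicate 1 is red for Jund, Jun, Fos and Dusp1 (0.68 to 0.86), and Ctrl 5-FU replicate 1 is blue for Fos, Dusp1 and Egr1.

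Of 33 other immediate early genes, 21 were tested. With antibiotics 12 were called higher and 1 lower after 5-FU, where 13.7% of all tested genes were called higher and 16.5% lower, and the median change was 0.51 against -0.01 over all tested genes. Nr4a1, among those called higher with antibiotics, was under 1 RPKM in every library without 5-FU. Like Fosl2, it could enter the test only by being higher after 5-FU. Without antibiotics 10 were higher and 1 lower, where 9.74% of all genes were called higher and 11.8% lower, and the median was 0.58 against 0.0045. Socs3, a feedback inhibitor of cytokine receptors, measured 26.2, 26.2 and 30.8 RPKM in ABX 5-FU libraries against 1.80, 1.57 and 2.004 RPKM in ABX libraries, and 23.8, 31.7 and 40.8 RPKM in Ctrl 5-FU libraries against 3.01, 3.12 and 4.21 RPKM in Ctrl libraries. Its changes of 3.36 ± 0.17 with antibiotics (limma, adjusted p = 1.71e-06) and 2.87 ± 0.17 without (limma, adjusted p = 5.18e-06) exceeded those of all 8 AP-1 and immediate early genes tested. Gem, a small GTP-binding protein, rose by 1.69 ± 0.17 with antibiotics (limma, adjusted p = 0.000111) and by 1.84 ± 0.17 without (limma, adjusted p = 0.00014). Btg2, an antiproliferative gene, rose by 1.89 ± 0.25 with antibiotics (limma, adjusted p = 0.0005) and by 1.58 ± 0.25 without (limma, adjusted p = 0.00216). Klf6, a zinc finger factor, rose by 0.45 ± 0.09 with antibiotics (limma, adjusted p = 0.00422) and by 0.61 ± 0.09 without (limma, adjusted p = 0.00165). Myc, the growth-promoting factor, was the gene that fell, to 34.3, 35.1 and 37.3 RPKM in ABX 5-FU libraries, against 74.6, 67.3 and 55.9 RPKM in ABX libraries. It fell by 0.86 ± 0.13 with antibiotics (limma, adjusted p = 0.00119) and by 0.87 ± 0.13 without (limma, adjusted p = 0.00194). For antibiotics and for the interaction none of the 21 was called.

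Of 12 other AP-1 and small MAF factors, 5 were tested, with 1 called higher and 1 lower with antibiotics and 1 higher without. Mafk, a small MAF protein, rose by 0.49 ± 0.10 without antibiotics (limma, adjusted p = 0.00758). With antibiotics Atf2, a CRE-binding partner of JUN, rose by 0.25 ± 0.08 (limma, adjusted p = 0.0345), and Mafg fell by 0.39 ± 0.12 (limma, adjusted p = 0.0343). Of 23 kinases and factors upstream of AP-1, 13 were tested, 0 were called with antibiotics and 1 without, the serum response partner Elk3 at 0.24 ± 0.08 (limma, adjusted p = 0.0471). Of 13 MAP kinase phosphatases and feedback inhibitors, 5 were tested, 0 were called with antibiotics and 1 without, Spry1 at 0.81 ± 0.12 (limma, adjusted p = 0.00188). Over all tested genes, 13.7% were called higher and 16.5% lower with antibiotics, and 9.74% higher and 11.8% lower without. None of these genes was called for antibiotics.

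Heat shock genes also respond to cell handling. Of 12, 10 were tested, and with antibiotics 0 were called higher and 6 lower after 5-FU, where 13.7% of all tested genes were called higher and 16.5% lower, and the median was -0.40 against -0.01 over all genes. The chaperonin gene Hspe1 fell by 0.72 ± 0.13, Hsp90ab1 by 0.41 ± 0.08, Hspd1 by 0.60 ± 0.13 and Hsp90aa1 by 0.45 ± 0.11 (limma, adjusted p of 0.00282, 0.00295, 0.00645 and 0.00901 in that order). Without antibiotics 1 was called higher and 2 lower, where 9.74% of all genes were called higher and 11.8% lower, and the median was -0.16 against 0.0045. Hspa1b, an inducible HSP70 gene with a near-identical copy, rose by 0.89 ± 0.28 (limma, adjusted p = 0.0425). It measured 3.77, 1.05 and 2.11 RPKM in Ctrl 5-FU libraries and 0.930, 0.368 and 0.805 RPKM in Ctrl libraries. Outside Ctrl 5-FU it reached 1 RPKM only in ABX replicate 3 and ABX 5-FU replicate 1, so it entered the test only through the Ctrl 5-FU libraries. Hsp90ab1 fell by 0.35 ± 0.08 (limma, adjusted p = 0.0111) and Hspe1 fell by 0.43 ± 0.13 (limma, adjusted p = 0.0407). The sources used here give no sorting or handling times, and their part in these values was not tested.

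**Figure D5:**
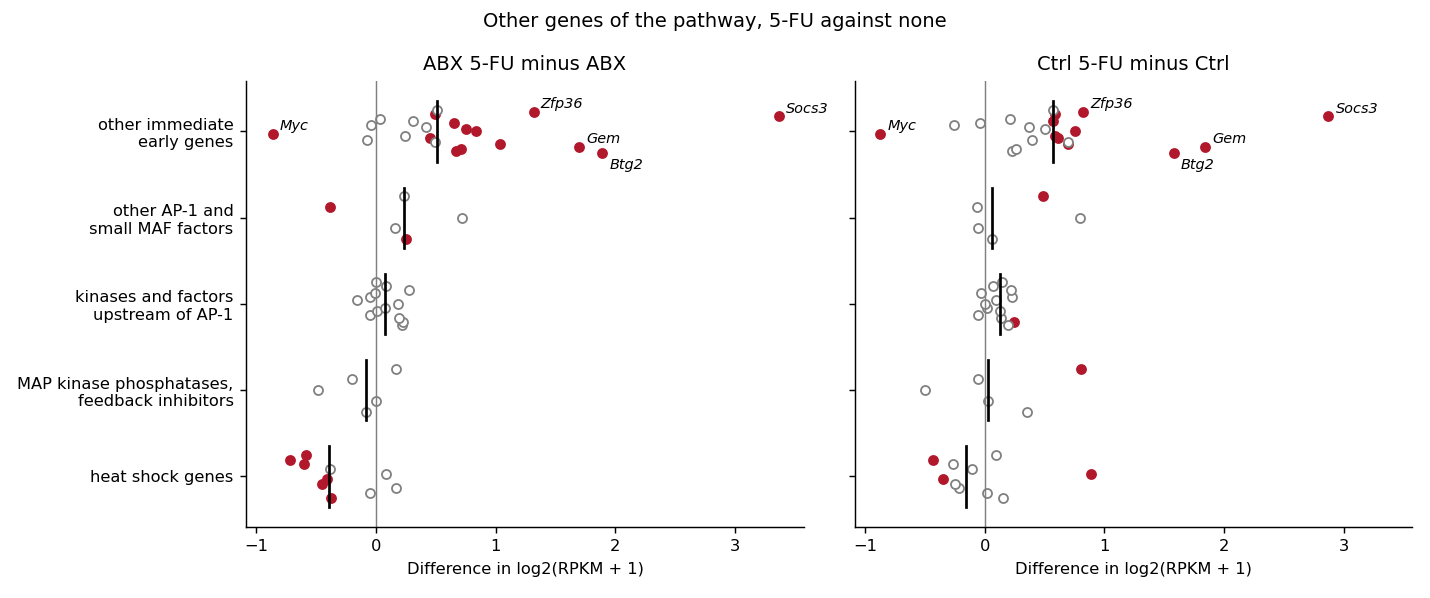
Differences in log2(RPKM + 1) after 5-FU for the tested genes of 5 lists, ABX 5-FU minus ABX (left) and Ctrl 5-FU minus Ctrl (right). Red points passed an adjusted p of 0.05 and black bars are list medians. The medians of the other immediate early genes lie at 0.51 and 0.58, and those of the heat shock genes at -0.40 and -0.16.

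The genes whose values over the 12 libraries were most like those of Junb, by the root mean square difference of centred log2(RPKM + 1) values among 2634 genes, were Rrad (0.20), Ypel3 (0.23), Klhl24 (0.26) and Ddah2 (0.27). Rrad, which encodes a small GTP-binding protein related to Gem, averaged 14.1 RPKM in ABX 5-FU, 11.2 in Ctrl 5-FU, 4.51 in ABX and 4.45 in Ctrl libraries. Among those most like Fos were Zfp36 (0.35), Ccng2 (0.43) and Tcp11l2 (0.43). Zfp36, which encodes the RNA-binding protein tristetraprolin and is itself an immediate early gene, averaged 56.8 RPKM in ABX 5-FU, 45.9 in Ctrl 5-FU, 22.1 in ABX and 24.9 in Ctrl libraries. Its Ctrl 5-FU replicate 1, at 28.4 RPKM, lay inside the Ctrl range of 19.4 to 30.8 RPKM, as that library did for Fos, while Ctrl 5-FU replicates 2 and 3 were at 54.5 and 54.7 RPKM. These distances describe 12 libraries that share 4 groups and carry no test.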

How the data were processed

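Per the labels, cDNA of sorted cells was made with SMART-Seq v4 and libraries with Nextera XT. STAR 2.5.3a, Partek and the mm10 build appear in the submitters' processing notes. The counting rule, the use of strand, the annotation release and the sort gates were not given in the sources used here. RPKM values are as deposited by the authors, with 0.0001 in place of 0, and all per-sample columns were used (0 others).

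Values were analysed as log2(RPKM + 1) where a gene reached 1 RPKM in 3 or more libraries. The 12 libraries were fitted in limma 3.58.1 (R 4.3.3) with 4 group means and an intensity trend, two-sided, with Benjamini-Hochberg adjustment over all 8553 genes and calls at 0.05, after the script was checked on simulated data. An exact permutation test of 3 against 3 cannot reach p = 0.05, so none was run. Steps between low values served to estimate depth. At the depth chosen by this step, 57.8% to 62.3% of values between about 1 and 10 reads lay within 2% of a whole number of reads, where values spread evenly would give 13.6% to 14.2%, so many were not whole and no count test was run. Replicates are numbered in accession order. Libraries that share an i7 index had deviations from their group means correlated at 0.278, -0.108 and 0.0665 without 5-FU and at 0.498, 0.315 and 0.295 with it. Fits with the index as a block are therefore given for the antibiotic comparisons.

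The 10 genes and all lists were chosen with earlier results of these data known. All 10 are named in every comparison, with up to 4 called genes of smallest p from each other list, and 4 genes each most like Junb and Fos. Gm11175 was named after its values were seen. A few genes that these rules name are not reported here. Alternatives were pseudocounts of 0.1 and 5 RPKM, no filter or 5 RPKM, scaling to equal totals (TPM) or by median of ratios, no intensity trend, the compared groups alone, leaving out each library, and the index block. Coordinates are those of the table, the end being its stop less 1. Promoters are from RefSeq, and transcript GC is from GENCODE. Python 3.11.15, pandas 2.3.3 and matplotlib 3.10.9 were used.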

Additional observations from a re-analysis of the deposited data

How the results depend on the processing

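Junb and Fosl2 were called in both 5-FU comparisons, and Fos with antibiotics, under every alternative in which each was tested. With a filter of 5 RPKM Fosl2 was not tested, and 1 of the 10 genes was called without antibiotics. Of 811 alternative values of single genes, 765 kept direction and side of the threshold, 4 newly passed it and 42 changed sign; none of those that changed sign passed the test in either fit. Over all genes the called number without antibiotics was 1184 with the 5 RPKM filter, 812 with the compared groups alone and 942 to 2078 when a library was left out. With antibiotics it was 1460 with the 5 RPKM filter and 1624 to 2876 with a library left out. For antibiotics at steady state it was 11 with no filter, 15 with the 5 RPKM filter, 13 with TPM and 1 to 29 with a library left out. After 5-FU it was 22 with the 5 RPKM filter, 47 with TPM, 3 with the compared groups alone and 6 to 42 with a library left out. For the interaction it was 7 with no filter, 0 with the 5 RPKM filter and 0 to 3. With the i7 index as a replicate block it was 20 at steady state, 22 after 5-FU and 0 for the interaction, and the block called none of the 8 genes.

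With a library left out, values whose sign changed ran after 5-FU with antibiotics -0.044 to 0.76 for Jund and after 5-FU without antibiotics -0.23 to 0.33 for Egr1, -0.041 to 0.17 for Ier2 and -0.031 to 0.63 for Dusp1. They ran for antibiotics at steady state -0.24 to 0.11 for Junb, -0.036 to 0.10 for Ier2 and -0.36 to 0.39 for Jun. They ran for antibiotics after 5-FU -0.23 to 0.37 for Fos, -0.062 to 0.15 for Ier2, -0.15 to 0.31 for Fosl2, -0.14 to 0.0011 for Junb and -0.25 to 0.0033 for Jun. The values ran for the interaction -0.085 to 0.12 for Ier2, -0.18 to 0.16 for Junb, -0.090 to 0.59 for Dusp1, -0.094 to 0.36 for Fosl2, -0.51 to 0.25 for Jun and -0.59 to 0.22 for Jund. Ier2 at steady state was -0.0095 with TPM and -0.0024 with median-of-ratios scaling, -0.021 with TPM after 5-FU, and its interaction was 0.0091 with median-of-ratios scaling. With all AP-1 factors as 1 total, Junb held 53.0%, 53.8%, 43.4% and 43.7% and Fos 12.7%, 11.5%, 7.88% and 13.4% in ABX 5-FU, Ctrl 5-FU, ABX and Ctrl libraries, a larger total by construction. The cause of the other changes was not tested. Fosb and Atf3 did not pass the filter at 1 RPKM, and few reads limit Atf3. With 3 libraries a group, p-values rest on a spread shared over 4 groups.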
